A study of Mus musculus with 45 samples.

Results

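The genes described here bear the symbols of voltage-gated sodium and calcium channel subunits, though some encode proteins best known for other roles, as given below. They were chosen by symbol from 24421 gene symbols in read counts of the mouse nucleus accumbens. Symbols of the Scn, Cacna, Cacnb and Cacng families were taken where the mean over 45 libraries reached 0.5 CPM (counts scaled to a common library total of gene reads). Of 39 symbols that fitted the name pattern, 35 reached that level, and all 35 were tested. They comprise 7 sodium channel alpha subunits and 4 sodium channel beta subunits, with 9 calcium channel alpha1 subunits, 4 alpha2delta subunits, 4 beta subunits and 7 gamma subunits. Just inside the limit was Scn11a with a mean of 0.505 CPM. Just outside were Cacna1f with 0.499 CPM, Cacng1 with 0.462 CPM and Scn10a with 0.421 CPM, and Scn4a had 0.027 CPM. The gene usually called Scn2a stands in the counts under its older symbol Scn2a1, which the name pattern misses, so its values are given for comparison and it is not counted.

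The pore of each of these channels is formed by 1 large alpha or alpha1 protein that opens when the membrane depolarises. Sodium channels carry the upstroke of the action potential. Calcium channels turn depolarisation into calcium entry, which drives transmitter release, dendritic calcium signals and firing patterns. The smaller subunits set how many channels reach the membrane and how they gate. In the nucleus accumbens most neurons are medium spiny neurons, inhibitory projection cells whose firing depends on both channel families.

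All mice were females of HDID-1, a line bred for reaching high blood alcohol levels when drinking in the dark, at selection generation S35.G37. All groups received the same pair of adeno-associated viruses on both sides of the nucleus accumbens. One carried Cre-GFP behind a CMV promoter, and the other carried hM3Dq-mCherry, which needs Cre and is driven by the neuronal hSyn promoter. hM3Dq is an engineered receptor that clozapine N-oxide (CNO) activates, and no library used here came from a mouse without it. Mice had daily drinking sessions for 6 weeks, with vehicle in week 1 and again in week 6, and in weeks 2 to 5 with CNO (1 mg/kg) in the CNO groups only. CNO was given to 12 mice that drank alcohol and 11 that drank water, and vehicle throughout to 11 alcohol drinkers and 11 water drinkers, with 1 library per mouse. The sources used here give neither the age of the mice nor the time of tissue collection.

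Reads assigned to genes numbered 26.8 M to 39.5 M per library (mean 32.1 M, SD 3.23 M, n = 45). Reads that the counting program HTSeq assigned to no feature, called the no-feature share below, made up 15.6% to 21.9%. The sources used here do not say whether reads in introns fall into this share. The medium spiny neuron markers Drd1 and Drd2, the defining dopamine receptors of the labelled tissue, averaged 243 and 122 CPM over all libraries. Slc17a7, a marker of cortical glutamatergic neurons, ranged from 38.1 to 641 CPM. Replicates 5 and 10 of the alcohol vehicle group and replicate 9 of the water vehicle group stood apart by their immune transcripts. They are called the 3 immune-rich libraries and are named where a result rests on them. Tube numbers in the titles ran from 1 to 24 for alcohol and from 25 to 46 for water, so tube order and fluid cannot be told apart.

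The channel genes differed widely in abundance. Of the 35, 30 averaged 15 CPM or more, and these had between 506 and 18932 reads per library on average. The other 5, Cacna1s, Cacna2d4, Cacng6, Scn7a and Scn11a, averaged 16.2 to 79.5 reads per library, which limits what can be said of them. Levels in CPM are after TMM scaling. To set genes of different length beside each other, levels were divided by the annotated exon length (GENCODE M21, GRCm38) and are then in CPM per kb. That length joins all exons annotated for a gene, and which of its transcripts were expressed was not examined. Orders and shares per exon length rest on it and can differ from those in plain CPM. Before TMM scaling Cacnb4 averaged 296 CPM and Cacnb1 202 CPM, the reverse of their order per kb.

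**Figure D1:**
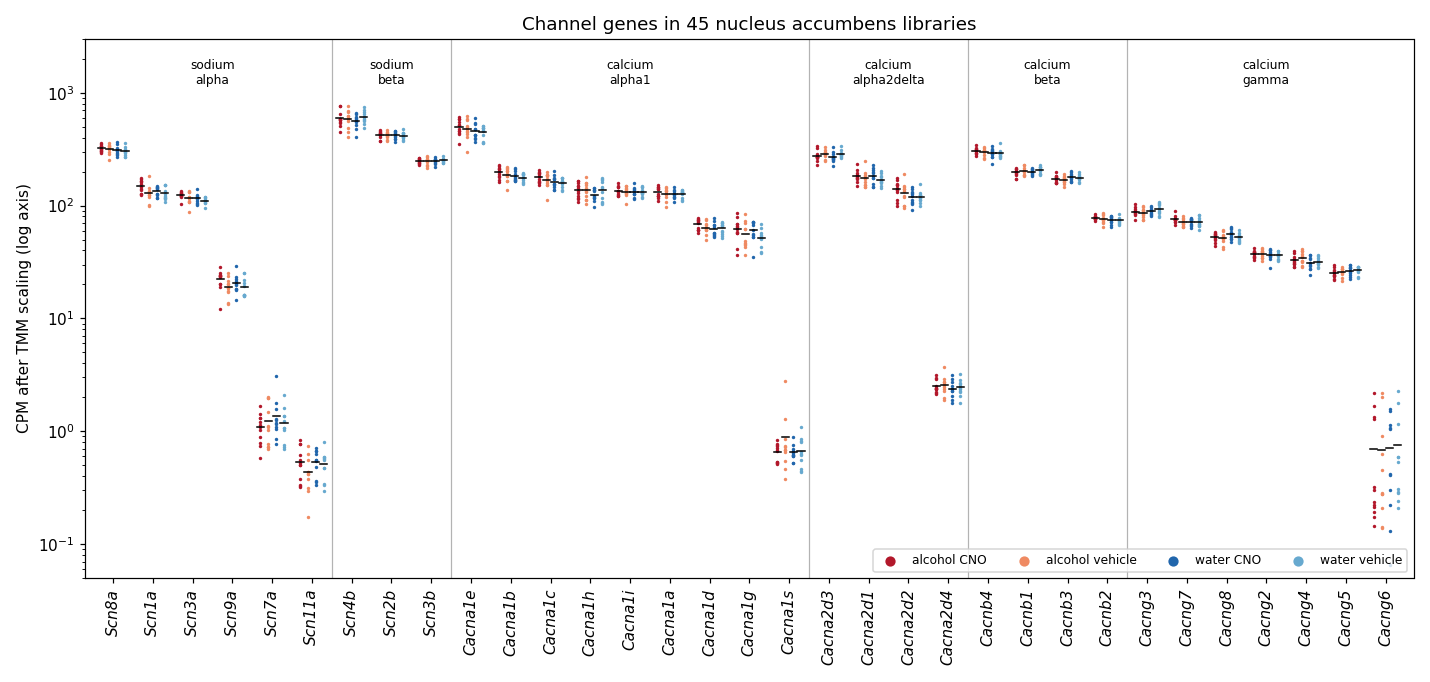
Level of 33 of the 35 channel genes in every library, in CPM after TMM scaling on a log axis. Points are single libraries (12 alcohol CNO, 11 water CNO, 11 alcohol vehicle and 11 water vehicle), black lines are group means, and genes are ordered by level within their family. The 4 groups overlap for every gene drawn, and Cacng6 spreads from 0.0655 to 2.29 CPM.

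Among the sodium channel pore genes, Scn8a stood highest of the 7. It encodes a channel of the axon initial segment and the nodes of Ranvier. Its level was 322 CPM ± 21.7 (SD, n = 12) in alcohol CNO mice, 310.1 ± 28.9 (n = 11) in water CNO mice, 318 ± 30.1 (n = 11) in alcohol vehicle mice and 302 ± 27.2 (n = 11) in water vehicle mice. Per exon length Scn8a averaged 19.9 CPM per kb, against 12.2 for Scn1a, a channel known from fast-spiking inhibitory neurons, and 9.38 for Scn3a, which is best known from the developing brain. Scn9a, known from sensory neurons, averaged 1.59 CPM per kb. Scn7a encodes a sodium-sensing relative of the channels, and Scn11a a channel of sensory neurons. Scn7a lay between 0.582 and 3.09 CPM and Scn11a between 0.173 and 0.838 CPM. Scn2a1, outside the symbol rule, was above all of them with 34.0 CPM per kb. With it counted in, Scn2a1 held 42.9% ± 2.63 and Scn8a 25.2% ± 1.67 of the per-length sum of the sodium alpha genes (SD, n = 45).

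The 4 sodium beta subunit genes were the most abundant family per exon length. Scn4b encodes beta4, which is abundant in striatal neurons and linked to resurgent sodium current. Scn4b averaged 593 CPM ± 91.6 in alcohol CNO mice, 561 ± 72.5 in water CNO mice, 586 ± 106 in alcohol vehicle mice and 612 ± 77.0 in water vehicle mice. Per exon length Scn4b had 118 CPM per kb, Scn2b 90.5 and Scn3b 45.6. Scn4b made up 35.0% ± 3.35 of the family sum (SD, n = 45). Scn2b, which encodes a beta subunit joined to the pore protein by a disulfide bond, kept a narrow range of 366 to 475 CPM over the 45 libraries. Scn3b, whose protein binds without such a bond, ranged from 214 to 276 CPM. Scn2b and Scn4b are neighbours on chromosome 9, at chr9:45117782-45130070 and chr9:45138395-45154152 (GRCm38, plus strand).

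Among the calcium channel pore genes, those of the presynaptic N and R types led. Per exon length Cacna1b, the N-type gene, averaged 18.8 CPM per kb, Cacna1e, the R-type gene, 18.7, and Cacna1a, the P/Q-type gene, 11.2. Together these 3 genes held 51.3% ± 1.22 of the per-length sum of the alpha1 genes (SD, n = 45). The T-type genes, whose channels open near rest, held 34.9% ± 1.38, with 13.8 CPM per kb for Cacna1h, 13.5 for Cacna1i and 5.70 for Cacna1g. The L-type genes held 13.8% ± 0.45, with 7.92 CPM per kb for Cacna1c and 5.09 for Cacna1d. Cacna1s, the L-type gene of skeletal muscle, lay at 0.377 to 2.80 CPM. In plain CPM, Cacna1e was the highest with 498 ± 75.7 in alcohol CNO mice, 458 ± 71.7 in water CNO mice, 481 ± 90.6 in alcohol vehicle mice and 446 ± 60.1 in water vehicle mice.

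Of the alpha2delta genes, whose proteins sit on the outer face of the membrane and raise the number of channels there, Cacna2d3 held 51.1% ± 2.99 of the family's per-length sum. Its level per exon length was 32.1 CPM per kb, against 16.1 for Cacna2d2 and 14.4 for Cacna2d1, both of which encode binding sites of gabapentin. Cacna2d4, known from the retina, lay at 1.77 to 3.71 CPM. Of the cytoplasmic beta subunits, which carry the pore protein to the membrane, Cacnb1 had 44.6 CPM per kb, Cacnb3 43.5, Cacnb4 33.1 and Cacnb2 5.72. The gamma family is named for a muscle channel subunit, but most of its brain members are partners of AMPA-type glutamate receptors. Of these, Cacng3 had 32.1 CPM per kb, Cacng7 29.8, Cacng8 22.6, Cacng4 9.11, Cacng5 6.78 and Cacng2, which encodes stargazin, 6.70.

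**Figure D2:**
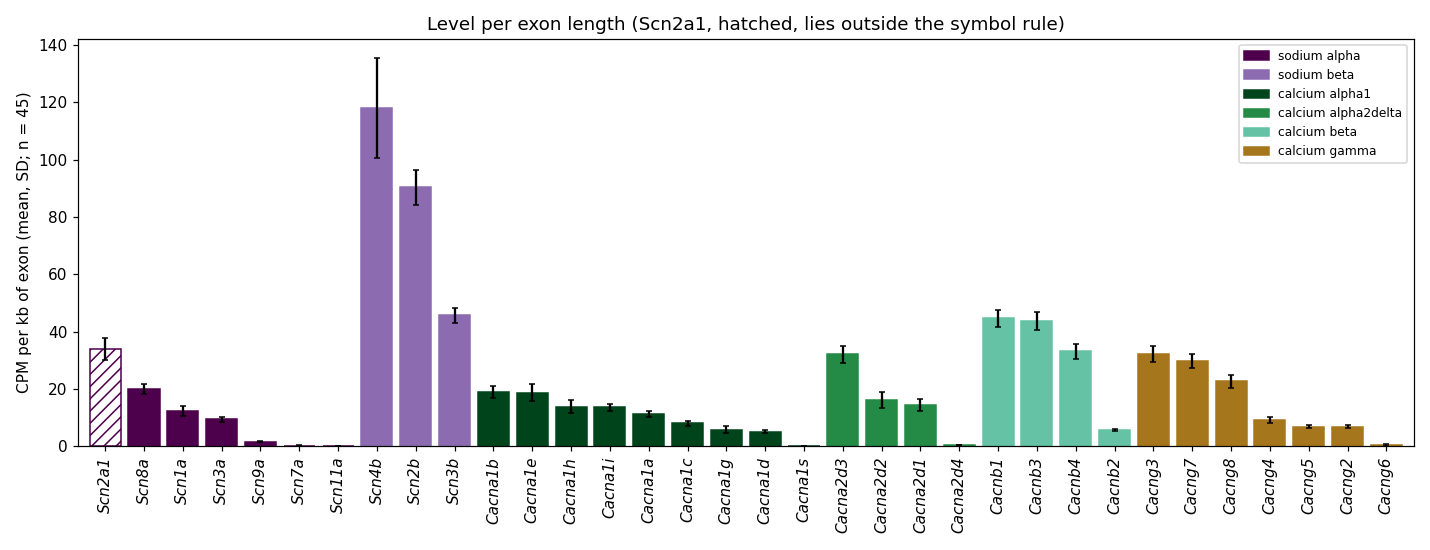
Level per exon length of 33 of the 35 channel genes and of Scn2a1 (hatched), in CPM per kb of exon. Bars are means over 45 libraries and error bars are SD. The sodium beta genes are the highest, led by Scn4b with 118 CPM per kb, and Cacna2d3 leads the alpha2delta genes with 32.1.

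Several of these genes lie side by side. Scn3a, Scn1a, Scn9a and Scn7a stand between 65457118 and 66784914 on chromosome 2, with Scn2a1 among them. Cacng7, Cacng8 and Cacng6 stand in that order between 3332955 and 3435667 on chromosome 7. Cacng7 and Cacng8 averaged 72.7 and 53.1 CPM, and their neighbour Cacng6 averaged 0.710 CPM. Members are also long genes, with a median span of 110.5 kb against 24.1 kb for 15268 tested genes with a span. The sources used here do not say whether counting used strand, so reads from a gene and an overlapping antisense gene cannot be told apart. The largest exon overlaps were 20.0% for Cacna1s with Gm37759 and 16.0% for Cacnb4 with A430018G15Rik.

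The design allowed 7 comparisons over all genes, each by the quasi-likelihood test of edgeR on 15852 genes with a Benjamini-Hochberg adjusted p under 0.05 as the threshold. No channel gene passed in any of them, so 0 of 35 were called 7 times over. In none of the 4 comparisons between pairs of groups did the ranges of the libraries part for any of the 35 genes. Over all genes tested they parted for 0.0126% for CNO in water drinkers and for 0% in the other 3. Comparisons share groups, so they are not independent of each other.

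CNO was compared with vehicle in alcohol drinkers to ask whether expression differed after CNO in weeks 2 to 5 and vehicle in week 6. All mice carried hM3Dq, so receptor activation and other actions of CNO cannot be told apart. Among the channel genes 0 of 35 passed, where 0.871% of all genes tested did, and 2 had an unadjusted p under 0.05, where 7.32% of all genes did. The smallest p belonged to Scn1a. Its lowest, median and highest values were 124, 149.7 and 175 CPM in alcohol CNO mice, and 98.7, 129 and 182 CPM in alcohol vehicle mice. The ranges overlapped, and the highest library was a vehicle one. Means were 149 CPM ± 18.6 (n = 12) with CNO and 129 ± 22.3 (n = 11) with vehicle, a log2 fold change of 0.21 ± 0.08 (SE, edgeR adjusted p = 0.297). Its call turned on a single library. Without alcohol vehicle replicate 3 it was 0.27 and passed (edgeR adjusted p = 0.0361), and without the 3 immune-rich libraries it was 0.14 (edgeR adjusted p = 0.9998). The share of all genes that passed without replicate 3 is not given here, so the call cannot be set against it.

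In the same comparison Scn9a had 22.3 CPM ± 4.13 with CNO and 19.1 ± 3.68 with vehicle, a log2 fold change of 0.22 ± 0.11 (SE, edgeR adjusted p = 0.704). Scn9a was at 0.13 with the no-feature share as a covariate and at 0.13 without the 3 immune-rich libraries. Cacng7 was at 0.09 ± 0.05 (SE, edgeR adjusted p = 0.759). Cacna1s was at -0.47 ± 0.21 (SE, edgeR adjusted p = 0.570), with 0.649 CPM ± 0.117 with CNO and 0.892 ± 0.674 with vehicle. One library set that vehicle mean, alcohol vehicle replicate 5 with 2.80 CPM, and without it the log2 fold change was -0.11. Without the 3 immune-rich libraries it was 0.02. The interferon marker score, the mean log2 CPM of interferon response genes, averaged 1.43 in alcohol CNO mice and 2.75 in alcohol vehicle mice. Beyond leaving out the 3 immune-rich libraries, its part in these values was not tested. The median log2 fold change of the 35 genes was 0.03, against 0.00 for all genes tested.

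In water drinkers CNO was again compared with vehicle, and 0 of 35 channel genes passed, where 0.0694% of all genes did. None of the 35 had an unadjusted p under 0.05, where 5.54% of all genes did. Cacna2d3 ran over 224, 264 and 333 CPM (lowest, median and highest) in water CNO mice, and over 263, 287 and 337 CPM in water vehicle mice. Its log2 fold change was -0.10 ± 0.06 (SE, edgeR adjusted p = 0.864), and the ranges overlapped. Cacna1g was at 0.22 ± 0.13 and Cacng8 at 0.09 ± 0.06, each with edgeR adjusted p = 0.864. In the same comparison 9 markers of cortical glutamatergic neurons had a median log2 fold change of 0.31, and none passed the threshold. Their mean log2 CPM, the cortical score, averaged 4.00 ± 0.84 (SD, n = 11) in water CNO mice. In water vehicle mice it averaged 3.84 ± 0.43 (SD, n = 11). With the cortical score as a covariate Cacna1g was at 0.16 (edgeR adjusted p = 0.875), against 0.22 without it. The difference between these values, and the part of the cortical score in them, was not tested.

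The effect of alcohol was asked by setting alcohol drinkers against water drinkers. Under CNO 0 of 35 channel genes passed, where 0% of all genes did, and 2 had an unadjusted p under 0.05, where 6.50% of all genes did. Cacna2d2 ran over 98.4, 141 and 177 CPM in alcohol CNO mice, and over 90.7, 123 and 145 CPM in water CNO mice. Its log2 fold change was 0.22 ± 0.10 (SE, edgeR adjusted p = 0.748), and 0.14 with the no-feature share as a covariate. Scn1a was at 0.16 ± 0.08 (edgeR adjusted p = 0.757) and Scn3a at 0.10 ± 0.05 (edgeR adjusted p = 0.786). Cacna1d averaged 68.2 CPM ± 7.23 (n = 12) in alcohol CNO mice and 61.9 ± 8.33 (n = 11) in water CNO mice, a log2 fold change of 0.14 ± 0.07 (edgeR adjusted p = 0.771). With the no-feature share as a covariate Cacna1d was at 0.03 and Scn3a at 0.07. The S number that ends each library's title, taken in 8 blocks as a covariate, put Cacna1d at 0.07. That share averaged 19.3% ± 1.37 in alcohol CNO mice and 18.1% ± 1.45 in water CNO mice.

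Under vehicle 0 of 35 channel genes passed between alcohol and water drinkers, where 0% of all genes did, and 1 had an unadjusted p under 0.05, where 8.36% of all genes did. That gene was Cacng3, whose protein is a partner of AMPA receptors. Its lowest, median and highest values were 73.8, 86.5 and 98.1 CPM in alcohol vehicle mice, and 80.0, 92.5 and 107 CPM in water vehicle mice. Its log2 fold change was -0.12 ± 0.05 (SE, edgeR adjusted p = 0.545). Cacng4 was at 0.12 ± 0.07 (edgeR adjusted p = 0.632) and Scn8a at 0.08 ± 0.05 (edgeR adjusted p = 0.715), with 0.12 for Scn8a without the 3 immune-rich libraries. Cacna1s was at 0.42 ± 0.21 (edgeR adjusted p = 0.609), at 0.07 without alcohol vehicle replicate 5 and at -0.07 without the 3 immune-rich libraries.

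**Figure D3:**
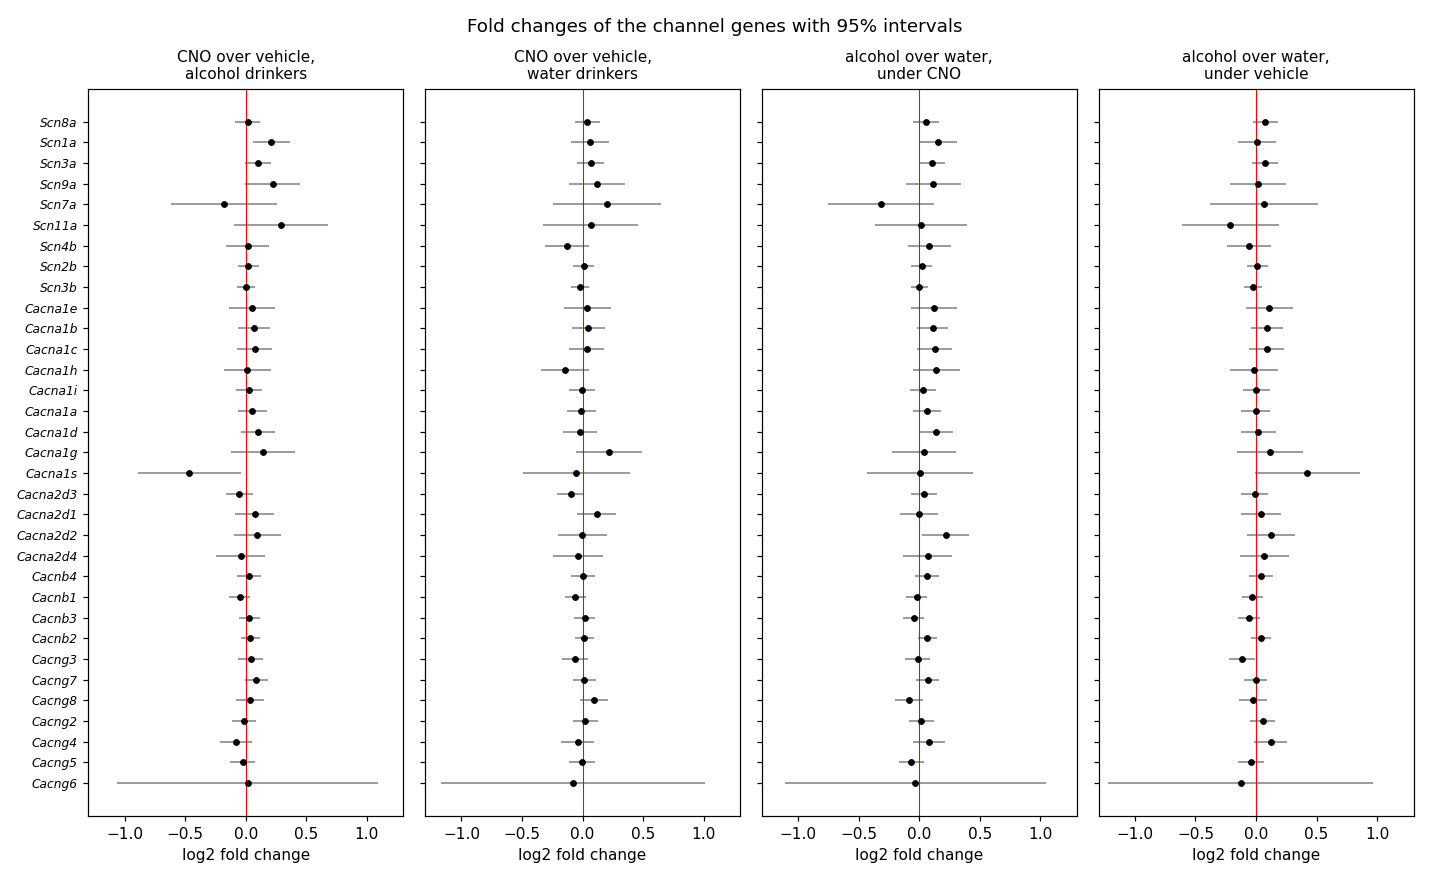
Log2 fold change of 33 of the 35 channel genes with its 95% interval from edgeR in the 4 comparisons between pairs of groups. Points are fold changes, grey lines intervals and red lines no change. Intervals are narrow for the 28 genes drawn that averaged 15 CPM or more and reach beyond 1 for Cacng6, and no gene passed the adjusted threshold.

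With both treatments averaged, 0 of 35 channel genes passed between alcohol and water drinkers, where 0% of all genes did, and 5 had an unadjusted p under 0.05, where 12% of all genes did. The smallest p belonged to Cacna2d2 with a log2 fold change of 0.17 ± 0.07 (SE, edgeR adjusted p = 0.332). Scn3a was at 0.09 ± 0.04 (edgeR adjusted p = 0.343), Cacng4 at 0.10 ± 0.05 (edgeR adjusted p = 0.380) and Cacna1b at 0.10 ± 0.05 (edgeR adjusted p = 0.382). With the no-feature share as a covariate Cacna1b was at 0.05. Values were positive for 25 of the 35 genes and for 51.9% of all genes, with medians of 0.04 and 0.00. All 9 alpha1 genes had positive values, with a median of 0.08, the same under DESeq2-style size factors. With the no-feature share as a covariate 7 of 9 did, with a median of 0.04. Across the 35 genes the fold change went with gene span (Spearman's rho 0.47, Pearson's r 0.43 with log10 span). Across 15268 genes rho was 0.26 and r was 0.09. Genes share libraries and are not independent, so these values are descriptions.

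With both fluids averaged, 0 of 35 channel genes passed between CNO and vehicle, where 0.889% of all genes did, and 3 had an unadjusted p under 0.05, where 9.30% of all genes did. All 3 were sodium channel alpha genes. Scn1a was at 0.13 ± 0.05 (SE, edgeR adjusted p = 0.367), Scn3a at 0.08 ± 0.04 (edgeR adjusted p = 0.493) and Scn9a at 0.17 ± 0.08 (edgeR adjusted p = 0.498). Without the 3 immune-rich libraries they were at 0.09, 0.05 and 0.14. Cacna2d3 was at -0.08 ± 0.04 (edgeR adjusted p = 0.552). The interaction of CNO and alcohol gave 0 of 35 past the threshold and 0 with an unadjusted p under 0.05, where 0% and 3.13% of all genes did. Its smallest p values belonged to Cacng3 at 0.11 ± 0.07, Scn1a at 0.15 ± 0.11, Cacna1s at -0.41 ± 0.31 and Scn7a at -0.38 ± 0.31, each with edgeR adjusted p = 0.983. Without the 3 immune-rich libraries Scn1a was at 0.09, Cacna1s at 0.08 and Scn7a at -0.19. Single libraries moved them too, with Cacna1s at -0.06 without alcohol vehicle replicate 5 and Scn7a at -0.19 without water CNO replicate 2. With the S-number blocks as a covariate Scn1a was at 0.08, Cacna1s at -0.25 and Scn7a at -0.23.

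The intervals show how large a change could have gone unseen. Of the 30 channel genes at 15 CPM or more, 30 had a 95% interval within 0.5 log2 units of 0 for CNO in alcohol drinkers, in water drinkers and for alcohol under CNO, and 29 did for alcohol under vehicle. For the interaction 29 of 30 did. Of the 5 genes at lower levels, 1 did for CNO in alcohol drinkers and 3 did for CNO in water drinkers, and the interval of Cacng6 ran from -1.06 to 1.09 in alcohol drinkers. Changes that lie inside these intervals could have been missed at this depth and number of mice.

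Genes whose proteins bind these channels were read from 3 lists. Sodium channel partners (10 genes, such as the ankyrin Ank3, which anchors sodium channels at the axon initial segment), calcium channel partners (20 genes) and the sodium leak channel complex (4 genes) had 0 members past the threshold in each of the 7 comparisons. Of all genes tested 0% to 0.889% passed in these comparisons, so counts of 0 lie near that share. Between alcohol and water, averaged, the smallest p values were those of Rimbp2, which links presynaptic calcium channels to the release machinery, at 0.15 ± 0.05 (SE, edgeR adjusted p = 0.283), Ank3 at 0.10 ± 0.04 (edgeR adjusted p = 0.332) and Unc80 at 0.09 ± 0.04 (edgeR adjusted p = 0.348). Between CNO and vehicle, averaged, they were those of Rem2, a small GTPase that inhibits calcium channels, at -0.14 ± 0.05 (SE, edgeR adjusted p = 0.238), Unc80 at 0.09 ± 0.04 (edgeR adjusted p = 0.396) and Fam155a at 0.14 ± 0.06 (edgeR adjusted p = 0.450).

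Several channel genes varied between libraries of the same group. The within-group SD on the log2 scale was 0.33 for Cacna1g, 0.24 for Cacna2d2, Cacna1e and Cacna1h, and 0.22 for Scn4b. Among genes at a like level these stood at percentiles 98.3, 96.7, 96.2, 96.2 and 95.7. Scn3b and Scn2b varied little, with SDs of 0.08 and 0.10 at percentiles 20.7 and 33.4. These genes were picked after their spreads were seen. The spread was then set against 4 measures of each library, with the 4 groups kept in the fit, and a slope is the log2 change per SD of the measure. In bulk tissue, fewer cells of a type and less RNA per cell cannot be told apart.

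The no-feature share was the measure most calcium channel pore genes followed. Of the 35 genes 16 passed, 13 higher and 3 lower in libraries with a larger share, where 53.9% of all genes passed (26.5% higher and 27.4% lower). Over both directions the count lay near that background, with more members higher and fewer lower than the shares of all genes would give. Of the 9 alpha1 genes 7 were higher, namely Cacna1a, Cacna1b, Cacna1c, Cacna1d, Cacna1e, Cacna1g and Cacna1h. Cacna1d, an L-type pore gene, rose by 0.15 ± 0.01 log2 units per SD (SE, edgeR adjusted p = 1.09e-13). Cacna1h rose by 0.21 ± 0.02 (edgeR adjusted p = 2.89e-12), Scn9a by 0.22 ± 0.03 (edgeR adjusted p = 7.86e-10), Cacna1e by 0.18 ± 0.02 (edgeR adjusted p = 1.04e-08) and Cacna1b by 0.11 ± 0.02 (edgeR adjusted p = 6.36e-07). The 3 lower genes were Scn2b at -0.05 ± 0.01 (edgeR adjusted p = 0.000900), Cacng7 at -0.05 ± 0.02 (edgeR adjusted p = 0.00280) and Cacna2d1 at -0.08 ± 0.03 (edgeR adjusted p = 0.0165). Cacnb4 at -0.03 ± 0.02 (edgeR adjusted p = 0.154) and Cacnb3 at -0.03 ± 0.02 (edgeR adjusted p = 0.177) did not pass. With the other 3 measures in the fit 15 of 35 passed, where 52.8% of all genes did. Cacna2d1 (edgeR adjusted p = 0.0795), Cacna2d2, Cacnb1 and Scn3a then no longer passed, and Cacna2d3 and Cacnb4, both lower, and Cacng3, higher, passed in that fit only.

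Markers of cortical glutamatergic neurons were the second measure. The score is the mean log2 CPM of 9 markers. It ran from 1.82 to 4.62 in alcohol CNO mice, 1.88 to 4.95 in water CNO mice, 2.83 to 4.65 in alcohol vehicle mice and 3.27 to 4.37 in water vehicle mice. No marker was at 0 in any library, and the lowest were Neurod1 and Emx1 with 0.175 CPM. Of the 35 channel genes 15 passed, 4 higher and 11 lower with the score, where 15.8% of all genes passed (9.17% higher and 6.62% lower). In the same fit 11 of 13 medium spiny neuron markers were lower. On the higher side, Cacna2d1 rose by 0.11 ± 0.03 log2 units per SD (SE, edgeR adjusted p = 0.00169), Cacna1g by 0.19 ± 0.04 (edgeR adjusted p = 0.00178) and Cacnb3 by 0.05 ± 0.01 (edgeR adjusted p = 0.0217). On the lower side were Cacna2d3 at -0.08 ± 0.02 (edgeR adjusted p = 0.000244), Cacng4 at -0.09 ± 0.02 (edgeR adjusted p = 0.000385), Cacna2d2 at -0.14 ± 0.03 (edgeR adjusted p = 0.000507), Cacna1c at -0.09 ± 0.02 (edgeR adjusted p = 0.00380) and Scn9a at -0.14 ± 0.04 (edgeR adjusted p = 0.00952). Cacnb2, Scn4b, Scn3a, Cacna1i and Cacna1e were lower too. Cacng6 was at 0.40 ± 0.20 (edgeR adjusted p = 0.178). With the other 3 measures in the fit 11 of 35 passed, where 15.3% of all genes did. Among the genes that then no longer passed were Cacnb3 (edgeR adjusted p = 0.0614), Scn3a (0.0555), Cacna1i (0.0641) and Cacna1e (0.109), and Scn2b, lower, passed in that fit only (0.00130).

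**Figure D4:**
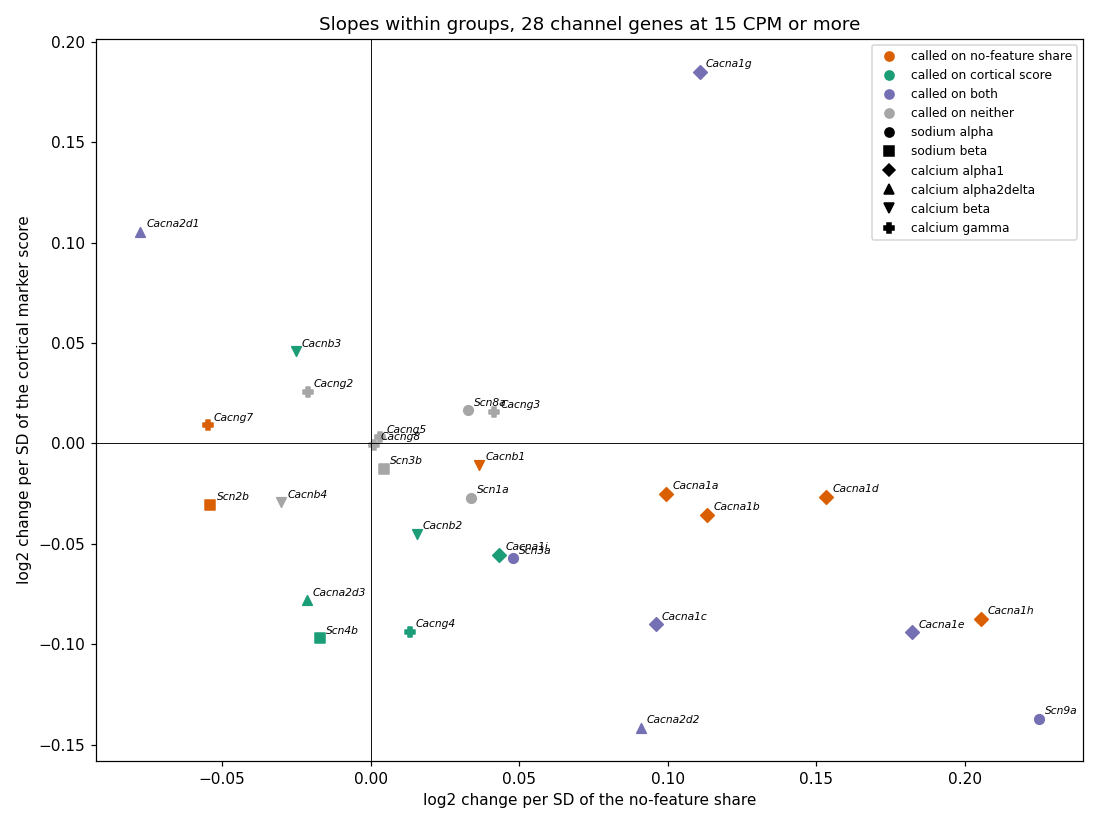
Slopes of 28 of the 30 channel genes at 15 CPM or more on the no-feature share (horizontal) and on the cortical marker score (vertical), each in log2 units per SD with the 4 groups in the fit. Marker shapes show the family and colours show which slopes passed the edgeR threshold. Calcium alpha1 genes lie to the right, up to 0.21 for Cacna1h, and Cacna2d1 and Cacna1g lie above 0.10 on the vertical axis.

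Within a family the slopes on the cortical score differed in sign. Of the alpha2delta genes Cacna2d1 was higher and Cacna2d2 and Cacna2d3 were lower, and of the T-type genes Cacna1g was higher and Cacna1i lower, though Cacna1i did not pass with the other 3 measures in the fit. The difference between 2 slopes was not tested. To show the start regions of the genes that moved with the score, 4 of them are printed from RefSeq (GRCm38.p6), chosen after their values were seen. Each runs from 250 bases before to 50 after a start that RefSeq gives the gene, which for Cacna2d2 and Scn4b is not the start of the GENCODE gene whose coordinates are used elsewhere here, 5′ to 3′ on the gene's own strand. Capitals mark GC boxes (GGGCGG, or CCGCCC where it lies on the other strand, overlapping copies merged). Cacna2d1 is at chr5:15934441-15934740 on the plus strand, Cacna2d2 at chr9:107399630-107399929 on the plus strand, Cacna2d3 at chr14:29721815-29722114 on the minus strand and Scn4b at chr9:45138374-45138673 on the plus strand.
Cacna2d1: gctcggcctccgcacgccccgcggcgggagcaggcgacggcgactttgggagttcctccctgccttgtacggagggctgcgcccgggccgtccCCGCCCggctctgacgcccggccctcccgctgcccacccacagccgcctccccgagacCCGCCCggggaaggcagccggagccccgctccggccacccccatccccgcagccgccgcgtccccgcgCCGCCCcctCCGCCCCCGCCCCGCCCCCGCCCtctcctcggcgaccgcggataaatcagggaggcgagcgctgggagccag
Cacna2d2: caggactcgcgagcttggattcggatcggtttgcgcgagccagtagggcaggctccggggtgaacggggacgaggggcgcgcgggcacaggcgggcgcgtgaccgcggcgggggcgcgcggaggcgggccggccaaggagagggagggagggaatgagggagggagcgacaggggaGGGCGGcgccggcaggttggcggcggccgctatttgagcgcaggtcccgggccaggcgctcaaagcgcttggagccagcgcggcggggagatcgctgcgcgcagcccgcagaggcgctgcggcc
Cacna2d3: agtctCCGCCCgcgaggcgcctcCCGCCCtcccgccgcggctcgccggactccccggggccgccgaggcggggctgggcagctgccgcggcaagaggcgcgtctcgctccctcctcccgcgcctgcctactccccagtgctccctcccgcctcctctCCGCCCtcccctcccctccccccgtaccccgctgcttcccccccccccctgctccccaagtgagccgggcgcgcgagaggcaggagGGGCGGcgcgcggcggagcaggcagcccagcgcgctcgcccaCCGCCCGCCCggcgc
Scn4b: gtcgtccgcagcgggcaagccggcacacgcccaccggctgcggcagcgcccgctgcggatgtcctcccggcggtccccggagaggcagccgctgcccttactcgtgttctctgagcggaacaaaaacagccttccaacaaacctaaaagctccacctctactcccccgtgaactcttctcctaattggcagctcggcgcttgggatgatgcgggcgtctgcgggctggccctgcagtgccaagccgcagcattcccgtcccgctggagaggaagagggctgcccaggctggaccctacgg
The windows of Cacna2d1, Cacna2d2, Cacna2d3 and Scn4b held 7, 1, 6 and 0 boxes, so the gene that was higher and one that was lower had several each. RefSeq windows were found for 26 of the 35 genes, 36 windows in all. A GC box stood in 15 of them (41.7%), against 35.7% of 32851 windows of the same length. The letters TATAAA stood in the 50 bases before the start, on the gene's strand, in 0 of the 36 and in 2.63% of all windows. A match of letters is a description and not a binding site.

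**Figure D5:**
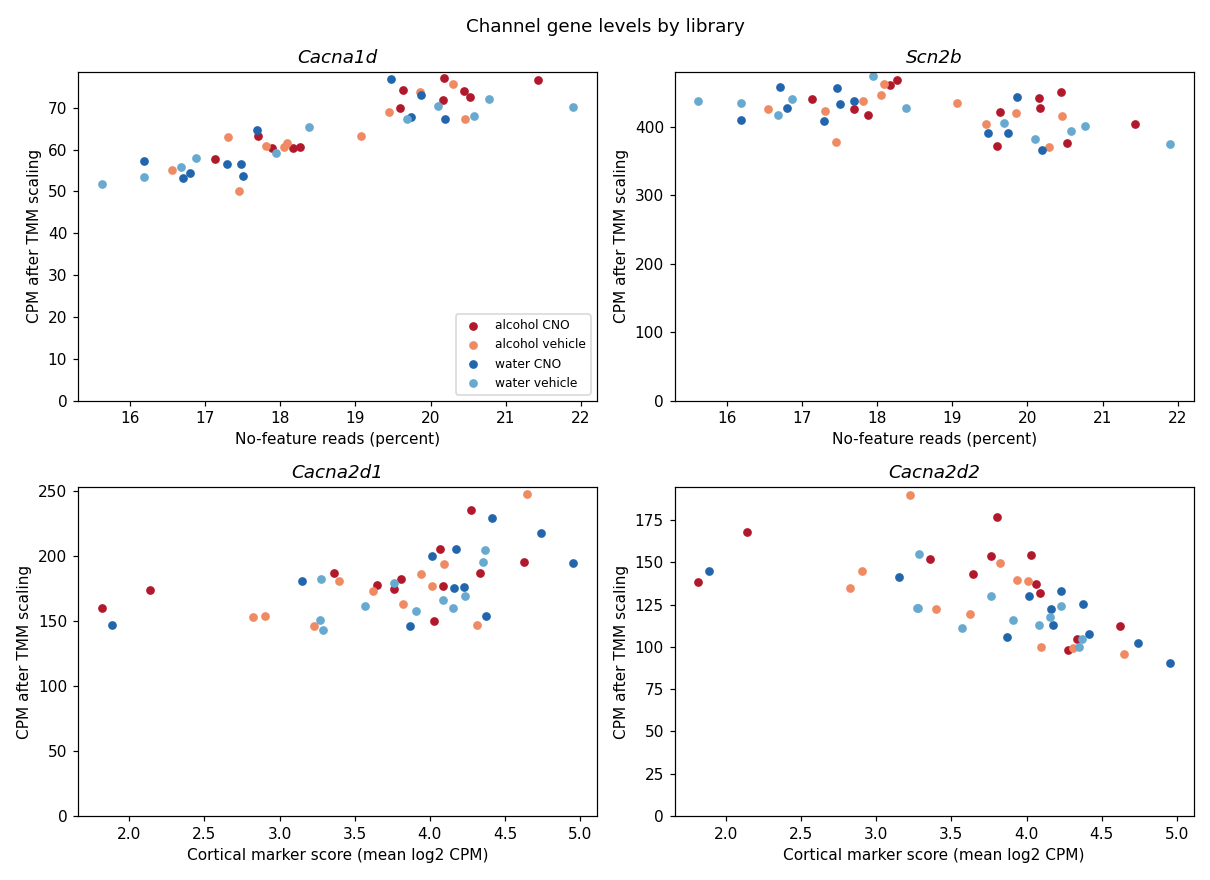
Level of 4 channel genes by library, in CPM after TMM scaling, against the no-feature share in percent (Cacna1d and Scn2b) or the cortical marker score in mean log2 CPM (Cacna2d1 and Cacna2d2). Points are single libraries, coloured by group. Cacna1d climbs with the no-feature share, Cacna2d1 climbs and Cacna2d2 declines with the cortical score, and the 4 groups are mixed along each axis.

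Few channel genes passed the threshold on the other 2 measures. On the oligodendrocyte marker score 0 of 35 passed by edgeR, where 1.29% of all genes did, 9 had an unadjusted p under 0.05, where 13% of all genes did, and 2 passed by voom (Cacna1a and Cacna1b, both lower), where 4.18% of all genes did. Slopes of the 30 genes at 15 CPM or more ran from -0.11 to 0.01 log2 units per SD. The smallest p values were those of Cacna1b at -0.08 ± 0.02 (SE, edgeR adjusted p = 0.0886), Cacna1a at -0.07 ± 0.02 (edgeR adjusted p = 0.109) and Scn8a at -0.06 ± 0.02 (edgeR adjusted p = 0.127), then Cacnb1 at -0.04 ± 0.01 and Cacna1c at -0.07 ± 0.03. On the higher side Cacna2d4 was at 0.06 ± 0.04 (edgeR adjusted p = 0.473), Cacna1s at 0.13 ± 0.08, Scn7a at 0.05 ± 0.08, Scn11a at 0.04 ± 0.07 and Cacng7 at 0.01 ± 0.02. On the interferon marker score 1 of 35 passed, where 6.55% of all genes did. That gene was Cacna1s at 0.33 ± 0.09 (SE, edgeR adjusted p = 0.0113), and without the 3 immune-rich libraries its slope was -0.0048. Scn11a was at 0.10 ± 0.10, Cacna1g at 0.02 ± 0.07 and Scn7a at 0.02 ± 0.11. Scn4b was at -0.11 ± 0.04 (edgeR adjusted p = 0.0911), Cacng2 at -0.06 ± 0.02, Cacnb2 at -0.04 ± 0.02, Scn3b at -0.03 ± 0.02 and Cacna2d3 at -0.05 ± 0.03. The interferon score averaged 1.43 in alcohol CNO mice, 1.26 in water CNO mice, 2.75 in alcohol vehicle mice and 2.72 in water vehicle mice.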

How the data were processed

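The authors deposited raw counts: each library's file gives whole numbers of reads by gene symbol. The submitters' processing notes name STAR, FastQC, HTSeq 0.9.1 and GRCm38 (mm10). Which annotation, strand option and overlap mode were used is not given in the sources used here. RNA (500 ng) went into an Illumina TruSeq protocol, per the labels.

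HTSeq's 5 summary rows were kept out of library sizes. Genes were filtered with filterByExpr, which left 15852, scaled by TMM and fitted with edgeR 4.0.16 (R 4.3.3, glmQLFit with robust fitting, 1 coefficient per group). P-values were adjusted by Benjamini-Hochberg over all genes, and 0.05 was the threshold. A standard error is the size of the log2 fold change over the square root of F. The 4 slope fits added 1 library measure each, scaled to SD 1. Marker scores are mean log2 CPM with a prior count of 2. The pipeline was also run on counts simulated from the means and spreads of these libraries. That simulation held no outlier libraries or batches, so it cannot show how the fits behave with them.

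The members, lists and tests were chosen with earlier results of these data known. In each comparison the genes named are those that passed and the 4 with the smallest p. For slopes they are the 5 with the smallest p in each direction, or fewer where fewer had that sign, and for partner lists the 3 with the smallest p in the averaged comparisons. A few genes, 2 of them channel genes, are counted in the totals and not reported here by name. Genes named beyond these were chosen after their values were seen, such as the further genes past the threshold in a slope. Alternatives were DESeq2 1.42.0, voom (limma 3.58.1), other scalings, filters and covariates, and libraries left out. Replicate numbers follow accession order and are only names.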

Additional observations from a re-analysis of the deposited data

How the results depend on the processing

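No paired analysis was possible because the labels number no replicates across groups and each library came from a different mouse. The S number in the titles numbers single libraries. As a covariate in 8 blocks it changed no call in the 7 comparisons and moved 5 of 27 values of named genes by over 1.5 times. Counts of 0 that remain 0 say little about stability. Leaving out each of the 45 libraries in turn gave 0 to 1 channel genes for CNO in alcohol drinkers, where the 1 was Scn1a without alcohol vehicle replicate 3, and 0 in the other 6 comparisons. The shares of all genes that passed in those fits are not given here. The oligodendrocyte slope gave 2 with voom, against 0 with edgeR. The interferon slope gave 0 with a filter at a mean CPM of 1, 0 with voom and 0 without the 3 immune-rich libraries, against 1; the filter removes Cacna1s, and the cause of the other losses was not tested. The no-feature slope gave 13 to 18 genes and the cortical slope 11 to 16. Of all genes, 53.9% passed on the no-feature slope in the main fit and 52.8% with the other 3 measures in the fit. On the cortical slope 15.8% and 15.3% did. The shares of all genes in the remaining fits are not given here, so these ranges show only how far the counts moved. Signs turned in 11 values of single genes. None of the turned values passed, but 1 of them, the interferon slope of Cacna1s, had passed before. Without the 3 immune-rich libraries, Cacna1s was at -0.068 for alcohol against water under vehicle, at 0.020 for CNO in alcohol drinkers, at 0.076 for the interaction and -0.0048 for the interferon slope. Without them Scn7a was at -0.0058 on the oligodendrocyte score and -0.11 on the interferon score, and voom put its interferon slope at -0.0074. With the other 3 measures in the fit, Cacng7 was at -0.0014 on the oligodendrocyte score and Cacna1g at -0.014 on the interferon score. With no group coefficients, Cacna1g was at -0.055 and Scn11a at -0.0091 on the interferon score. The cause of these turns was not tested. The 5 genes under 15 CPM averaged at most 79.5 reads per library, and their values are limited by depth.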

Other observations

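Cacng6, a gamma subunit related to that of the muscle channel, had the largest within-group SD of the channel genes. That SD was 1.22 on the log2 scale, at percentile 98.2 among genes at a like level, where Cacna1g stood at 98.3. Cacng6 lay above 1 CPM in 4 of 12 alcohol CNO, 2 of 11 alcohol vehicle, 5 of 11 water CNO and 3 of 11 water vehicle libraries, and at or under 1 CPM in the other 31 of 45. The limit of 1 CPM was chosen after the values were seen. Its mean of 22.6 reads per library limits these values.

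Scn2a1 averaged 458 CPM ± 31.8 (SD, n = 12) in alcohol CNO mice, 437 ± 37.8 (n = 11) in alcohol vehicle mice, 432 ± 56.5 (n = 11) in water CNO mice and 400.0 ± 48.7 (n = 11) in water vehicle mice. Scn2a1 was among the genes tested, of which 0% passed in the comparisons of alcohol with water and in the interaction. Its fold changes and its tests between CNO and vehicle are not given here. The slope of Scn2a1 on the no-feature share was negative, at -0.08 ± 0.02 (SE, edgeR adjusted p = 0.00101).

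On the no-feature share, where 53.9% of all genes passed, all 10 sodium channel partners passed, 6 higher and 4 lower. Of the calcium channel partners 12 of 20 passed and of the leak channel complex 3 of 4, which is near the share of all genes. Sptbn4, a spectrin of the axon initial segment, rose by 0.20 ± 0.02 log2 units per SD. On the cortical score 3 of 10, 7 of 20 and 1 of 4 passed, where 15.8% of all genes did. Rims1, a presynaptic scaffold, rose by 0.14 ± 0.02 and Rem2 fell by 0.09 ± 0.02. These partner genes were chosen after their values were seen.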
